A study of Homo sapiens with 12 samples.

Results

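A group of 10 genes that set or mark the balance between the epithelial and the mesenchymal state was read in 12 RNA-seq libraries of human triple-negative breast cancer cell lines. They are the transcription factors SNAI1, SNAI2, TWIST1, TWIST2, ZEB1 and ZEB2, the epithelial transcription factors GRHL2 and OVOL1, the epithelial splicing regulator ESRP1, and VIM, which encodes the filament protein vimentin. They were taken by symbol from the deposited count tables, and all 10 symbols were found, once each, among 61552 genes. The cells were of the established lines HCC38 and MDA-MB-231. Because HCC38 was kept in RPMI-1640 medium and MDA-MB-231 in DMEM with low glucose, effects of line and of medium cannot be told apart here. Both lines carry the genotype label WT. Each line was read without treatment and after 48 h with the type I interferon interferon-β at 400 IU/mL. That gives 4 groups of 3 libraries. The labels call the libraries biological replicates without naming separate cultures, so p-values measure the spread between these libraries. The series title places the experiment in a study of IRF3 and replication stress.

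In the epithelial state cells are joined by E-cadherin junctions and keep apical and basal sides apart. In the mesenchymal state the junctions are taken down and vimentin filaments and matrix genes are made. SNAI, ZEB and TWIST factors drive the shift toward the mesenchymal state, in part by binding E-box sequences at the E-cadherin gene CDH1 and recruiting corepressors. GRHL2 and OVOL1 hold the epithelial state and repress ZEB1, ESRP1 splices transcripts into their epithelial isoforms, and the miR-200 family of microRNAs lowers ZEB1 and ZEB2, which in turn repress the miR-200 genes. Triple-negative lines lie at different points of this range. HCC38 is used as a line of basal type and MDA-MB-231 as one of mesenchymal type.

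Levels are given as CPM, the reads of a gene per 1000000 reads of its library, after scaling library sizes by the trimmed mean of M-values, with mean ± SD over the 3 libraries of a group. FPKM, which also correct for transcript length, are used wherever levels of different genes are compared. A gene was called when the adjusted p of edgeR's quasi-likelihood test, with Benjamini-Hochberg adjustment over the 18121 genes tested, was under 0.05. A log2 fold change is followed by its SE. Total counts ran from 26660038 to 43588773 per library. ESR1 and PGR, the hormone receptor genes that such tumours lack, had at most 3 counts in any library, and the interferon-induced gene MX1 rose in both lines, by 1.80 ± 0.09 in HCC38 and 6.87 ± 0.12 in MDA-MB-231 on the log2 scale. The MDA-MB-231 libraries fell into sets, here called first and second. The first holds untreated replicates 1 and 2 and interferon-β replicate 1, the second untreated replicate 3 and interferon-β replicates 2 and 3. The numbers in the deposited names follow this division, and replicates of 1 group differed with a chi-square per degree of freedom of 46.5 to 68.1 between the sets and 4.31 to 15.4 otherwise. What the sets stand for is not given in the labels, so the members called in this line or in the difference between the lines, and the counts of list genes called there, are also given within each set. The first set has a single treated library and the second a single untreated one, and these fits keep the HCC38 libraries. Their spread thus comes largely from HCC38, and calls within a set are descriptions, not independent checks. These are bulk libraries, in which fewer cells of a kind and less RNA per cell cannot be told apart, nor can it be seen whether epithelial and mesenchymal transcripts were in the same cells.

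HCC38 held transcripts of all 10 genes, from both sides of the balance, whereas MDA-MB-231 had 0 counts of TWIST1, TWIST2, GRHL2 and OVOL1 in all 6 libraries. Untreated, MDA-MB-231 had higher levels of SNAI2, ZEB1, ZEB2 and VIM, and lower levels of SNAI1 and ESRP1. All 10 genes were called between the untreated lines, 4 higher and 6 lower in MDA-MB-231, in a comparison in which 75.5% of all genes tested were called. Between the treated lines the same 10 were called in the same directions, where 74.9% of all genes were called. The 4 genes at 0 in MDA-MB-231 passed the filter on low counts only through HCC38, so their call was fixed by passing it. With interferon-β 2 of the 10 genes were called in HCC38, SNAI2 lower and VIM higher, where 3.64% of all genes were called. In MDA-MB-231 1 of the 6 genes with counts was called, ESRP1 higher, where 12.5% of all genes were called.

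**Figure D1:**
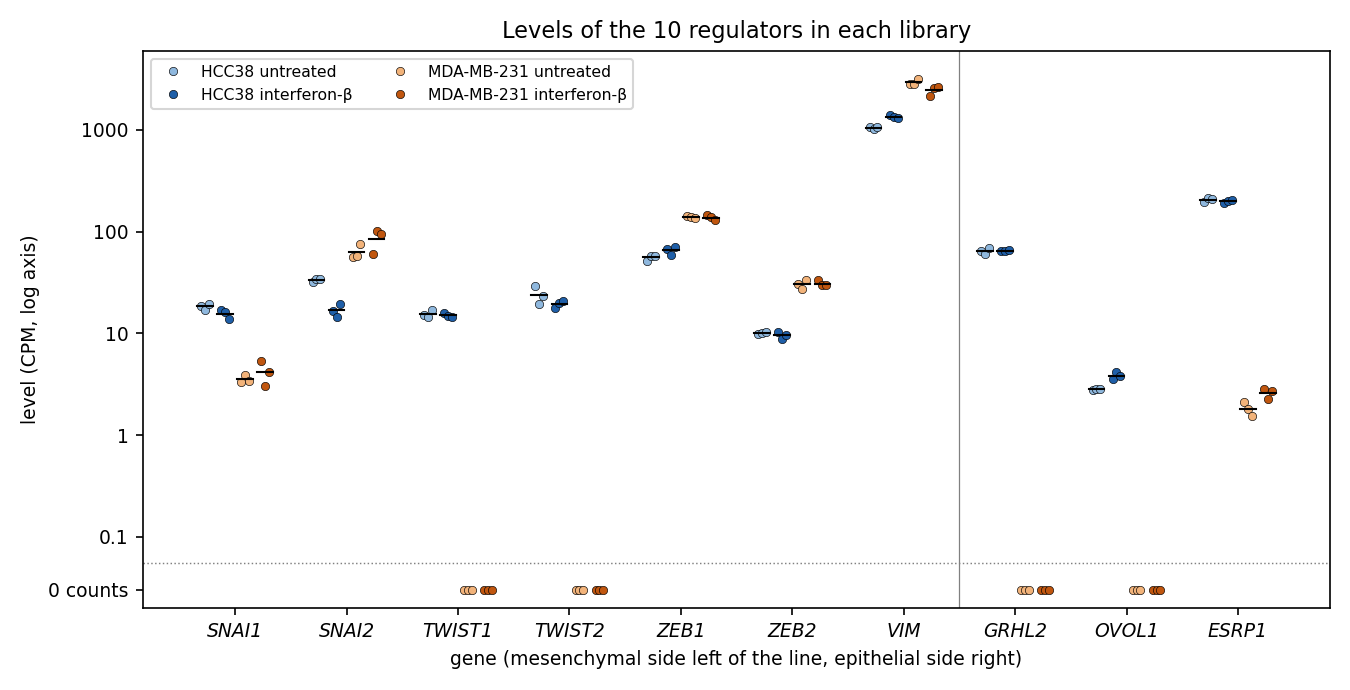
CPM of the 10 genes on a log axis, each point 1 library and each short bar the mean of 3 libraries, with libraries at 0 counts drawn below the dotted line. TWIST1, TWIST2, GRHL2 and OVOL1 sit at 0 counts in all 6 MDA-MB-231 libraries, while ZEB1, ZEB2, SNAI2 and VIM sit higher there than in untreated HCC38.

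Per length, VIM was by far the most abundant of the 10 in every group, with a mean of 617 FPKM in untreated HCC38 and 1685 in untreated MDA-MB-231. In untreated HCC38 it was followed by ESRP1 at 55.8 FPKM, GRHL2 at 37.3, TWIST2 at 26.8, SNAI2 at 16.5, ZEB1 at 16.2, SNAI1 at 11.9, TWIST1 at 11.8, ZEB2 at 3.60 and OVOL1 at 0.920. In this order the ranges of the 3 libraries overlapped for ESRP1 and GRHL2, GRHL2 and TWIST2, SNAI2 and ZEB1, and SNAI1 and TWIST1, so those neighbours did not differ beyond their spread. In untreated MDA-MB-231 the order after VIM was ZEB1 at 34.7 FPKM, SNAI2 at 30.2, ZEB2 at 7.11, SNAI1 at 2.32 and ESRP1 at 0.462, and only ZEB1 and SNAI2 overlapped. ESRP1, second in HCC38, was thus the lowest of the 6 genes detected in MDA-MB-231. With interferon-β, SNAI2 moved below TWIST1 and SNAI1 in HCC38, to 8.26 FPKM, its range still overlapping that of SNAI1, and in MDA-MB-231 it stood at 42.4 FPKM beside ZEB1 at 36.4, with overlapping ranges.

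SNAI2 (Slug), a zinc finger repressor that binds E-boxes and is also a factor of basal mammary cells, gave the largest interferon response of the 10 in HCC38. Untreated HCC38 libraries had 32.1, 34.2 and 34.2 CPM, and treated ones 16.8, 14.4 and 19.4 CPM. The groups did not overlap, and the treated mean was 0.503 times the untreated one. SNAI2 fell by 0.99 ± 0.18 on the log2 scale (adjusted p = 0.00543). The call held when any 1 of the 12 libraries was left out, with adjusted p up to 0.0401. In MDA-MB-231 the untreated libraries had 56.0, 57.6 and 75.9 CPM and the treated ones 59.7, 102 and 94.2. Here the groups overlapped, since treated replicate 1 lay below untreated replicate 3, and the high libraries of both groups were those of the second set. The log2 fold change of 0.43 ± 0.17 was not called (adjusted p = 0.120). It was 0.07 ± 0.13 within the first set and 0.36 ± 0.13 within the second, neither called (adjusted p = 0.888 and 0.0590). It was called without untreated replicate 3, at 0.58 (adjusted p = 0.0329), without interferon-β replicate 1, at 0.63 (adjusted p = 0.00322), and with no filter on low counts, at 0.42 (adjusted p = 0.00226).

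The response of SNAI2 differed between the lines. The difference, MDA-MB-231 minus HCC38, was 1.42 ± 0.25 on the log2 scale (adjusted p = 0.00584). It was 1.06 ± 0.16 against the first set alone and 1.35 ± 0.16 against the second alone. The gap between the lines was wider with treatment: SNAI2 was higher in MDA-MB-231 by 0.92 ± 0.17 untreated and by 2.34 ± 0.18 treated, which are 1.89-fold and 5.06-fold in mean CPM.

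SNAI1 (Snail), the close relative of SNAI2 and a short-lived repressor of CDH1, had the opposite order between the lines. It lies at chr20:49982999-49988886 on the plus strand of GRCh38, and its 3 untreated libraries had 18.8, 17.1 and 19.6 CPM in HCC38 and 3.36, 3.88 and 3.39 CPM in MDA-MB-231. The lines did not overlap, and SNAI1 was lower in MDA-MB-231 (log2 fold change -2.38 ± 0.17, adjusted p = 8.59e-09). Per length, SNAI2 and SNAI1 were near each other in untreated HCC38, with SNAI2 1.30 to 1.52 times SNAI1 over the 3 libraries, while in untreated MDA-MB-231 SNAI2 was 11.4 to 17.0 times SNAI1. In HCC38 treated with interferon-β the ratio was 0.673 to 1.07. The treated SNAI1 libraries had 16.8, 16.1 and 13.9 CPM in HCC38, all below the untreated ones, yet the log2 fold change of -0.25 ± 0.16 was not called (adjusted p = 0.489). In MDA-MB-231 they had 5.34, 3.03 and 4.14 CPM, overlapping the untreated group, with a log2 fold change of 0.24 ± 0.18 (adjusted p = 0.435). Within the first set it was 0.55 ± 0.19 (adjusted p = 0.107) and within the second 0.0914 ± 0.21 (adjusted p = 0.857).

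TWIST1 and TWIST2 are basic helix-loop-helix factors that were detected in HCC38 alone. TWIST1 (chr7:19020991-19117672, minus strand) had 15.0, 14.5 and 17.1 CPM in untreated HCC38 and 15.8, 14.8 and 14.4 CPM in treated HCC38. TWIST2 (chr2:238848032-238910543, plus strand) had 29.4, 19.5 and 23.1 CPM untreated and 17.9, 19.7 and 20.7 CPM treated. Both groups of libraries overlapped for each gene. The log2 fold changes with interferon-β, -0.05 ± 0.13 for TWIST1 and -0.30 ± 0.16 for TWIST2, were not called (adjusted p = 0.919 and 0.397). No MDA-MB-231 library had a count of either gene. Set against a floor of 3 counts per library, the level in untreated MDA-MB-231 was at least 172.7-fold lower than in HCC38 for TWIST1 and at least 267.2-fold lower for TWIST2. The FPKM were also listed at 0, except for a value of 0.0811 for TWIST1 in treated replicate 2, whose count was 0. These limits cover counting error only.

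ZEB1 and ZEB2, the zinc finger and homeodomain repressors of CDH1 and of the miR-200 genes, were both higher in MDA-MB-231. ZEB1 (chr10:31318495-31529814, plus strand) had 51.7, 58.0 and 57.6 CPM in untreated HCC38 and 141, 138 and 136 CPM in untreated MDA-MB-231. ZEB2 (chr2:144364364-144524583, minus strand) had 9.91, 10.1 and 10.4 CPM against 30.6, 27.3 and 33.2 CPM. The lines did not overlap for either gene, with log2 fold changes of 1.31 ± 0.08 for ZEB1 (adjusted p = 2.16e-09) and 1.58 ± 0.10 for ZEB2 (adjusted p = 3.24e-09), or 2.48-fold and 3.00-fold in mean CPM. ZEB1 was the more abundant of the pair in all 12 libraries per length, by 3.69 to 9.07 times in FPKM.

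Neither ZEB gene was called with interferon-β in either line. In HCC38, treated ZEB1 libraries had 67.5, 58.5 and 70.2 CPM, and the lowest of them lay just above the highest untreated one, with a log2 fold change of 0.23 ± 0.08 (adjusted p = 0.171). In MDA-MB-231 they had 145, 138 and 129 CPM with a mean of 137 ± 8.25 (SD, n = 3) beside 138 ± 2.53 untreated. Treated ZEB2 libraries had 10.4, 8.85 and 9.66 CPM in HCC38 and 33.1, 29.5 and 29.7 CPM in MDA-MB-231, overlapping the untreated groups in both. The response of ZEB1 was not shown to differ between the lines (difference -0.24 ± 0.12, adjusted p = 0.285), nor was that of ZEB2 (0.09 ± 0.15, adjusted p = 0.812). The antisense gene ZEB1-AS1, which starts beside ZEB1 on the other strand, went against ZEB1 between the lines, at 8.48 ± 1.66 CPM in untreated HCC38 and 5.67 ± 0.614 CPM in untreated MDA-MB-231 (log2 fold change -0.58 ± 0.16, adjusted p = 0.00398). Its exons overlap part of the 4.23% of ZEB1 exon bases that are covered on the opposite strand, and whether the counting used strand is not given, so the smaller gene is uncertain. ZEB2-AS1 had at most 2 counts in any library.

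The miR-200 family is shown because its members share seeds that recur in the ZEB messages. Their mature sequences from RefSeq (GRCh38.p14) are printed with bases 2 to 8, the seed, in capitals, the first 3 sharing one seed and the last 2 the other.
hsa-miR-200b-3p: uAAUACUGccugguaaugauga
hsa-miR-200c-3p: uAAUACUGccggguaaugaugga
hsa-miR-429: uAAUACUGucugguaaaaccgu
hsa-miR-200a-3p: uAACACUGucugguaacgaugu
hsa-miR-141-3p: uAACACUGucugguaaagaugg
The longest annotated 3′ UTR of ZEB1, 2552 bases in GENCODE release 29, holds 6 matches to the first seed and 3 to the second, and that of ZEB2, 5373 bases, holds 5 and 4. Of 2969 UTRs of like length, that of ZEB1 included, 0.0337% hold at least as many as ZEB1. Of 1445 of like length, that of ZEB2 included, 0.138% hold at least as many as ZEB2. The other members hold 2 matches (ESRP1), 1 (SNAI2 and GRHL2) or 0. Examples of the sites follow, written 5′ to 3′ as DNA with the letters that pair with the seed in capitals and the position counted from the start of the 3′ UTR.
ZEB1 at base 372: cattgttttatcttatCAGTATTa
ZEB1 at base 1246: gctgatttttacctatCAGTATTa
ZEB1 at base 785: gcaaaatcatcagaatCAGTGTTt
ZEB2 at base 395: ccgcactaccatacatCAGTATTt
ZEB2 at base 458: tcgcactacaatgcatCAGTATTa
ZEB2 at base 211: atgcaaaaattttgtaCAGTGTTa
A match of letters is a description and not a measured site. Mature microRNAs were not measured in these libraries, and transcripts of their genes were near the limit of counting. MIR429 had 4 to 7 counts per library in untreated HCC38 and 0 to 6 in treated HCC38, MIR200B 1 to 5 and 0 to 1, and MIR200A 2 to 3 and 2. In MDA-MB-231 the same genes had 0 counts, apart from 1 count of MIR200A in a treated library. MIR200CHG, the host gene of miR-200c and miR-141, had 0 or 1 count in every library. No comparison was made from counts this low.

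Promoter windows of 300 bases, from 250 before to 50 after an annotated start, were read for 4 of the 10 genes. ZEB1 had 7 windows, and ZEB2, TWIST2 and VIM had 1 each. The RefSeq table held none for SNAI1, TWIST1 and OVOL1, and SNAI2, GRHL2 and ESRP1 were left out of this search. The windows read were searched on both strands for the E-box CACCTG that SNAI and ZEB factors bind. They were also searched for the core of the interferon-stimulated response element (GAAA, any 2 bases, GAAA). One ZEB1 window held 3 E-boxes, which 0.635% of 35116 windows in the table do, while 20.6% hold at least 1. These are shares of single windows, whereas 7 windows were searched for ZEB1, so they overstate how rare such a find is for the gene. Another ZEB1 window held 1 E-box, yet another held 1 interferon core, and the ZEB2 window held 1 interferon core, as do 3.57% of all windows. The windows of VIM and TWIST2 held neither motif. The ZEB1 window with its E-boxes in capitals and the ZEB2 window with its interferon core in capitals are printed because both genes were higher in MDA-MB-231 and neither was called with interferon-β.
ZEB1 chr10:31318966-31319265 (plus strand): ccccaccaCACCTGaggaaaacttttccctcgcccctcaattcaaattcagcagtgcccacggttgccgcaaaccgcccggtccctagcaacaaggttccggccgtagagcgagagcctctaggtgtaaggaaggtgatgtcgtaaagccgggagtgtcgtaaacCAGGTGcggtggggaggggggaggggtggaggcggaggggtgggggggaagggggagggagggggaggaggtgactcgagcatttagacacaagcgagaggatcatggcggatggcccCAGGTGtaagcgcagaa
ZEB2 chr2:144520070-144520369 (minus strand): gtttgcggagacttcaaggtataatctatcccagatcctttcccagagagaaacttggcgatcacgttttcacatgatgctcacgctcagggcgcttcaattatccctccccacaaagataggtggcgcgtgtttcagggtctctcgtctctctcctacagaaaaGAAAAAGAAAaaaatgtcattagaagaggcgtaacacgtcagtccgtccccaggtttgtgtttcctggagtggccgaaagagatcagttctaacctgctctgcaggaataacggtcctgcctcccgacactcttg

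VIM, the type III intermediate filament gene used as the standard mesenchymal marker, rose with interferon-β in HCC38, and its response differed between the lines. It lies at chr10:17228259-17237593 on the plus strand. In HCC38 the untreated libraries had 1057, 1014 and 1067 CPM and the treated ones 1412, 1353 and 1295, with no overlap, and VIM rose by 0.37 ± 0.09 on the log2 scale (adjusted p = 0.0327), 1.29-fold in mean CPM. The call was lost without any 1 of the 6 HCC38 libraries, with log2 fold changes of 0.35 to 0.40 and adjusted p of 0.0625 to 0.137. In MDA-MB-231 the untreated libraries had 2815, 2816 and 3200.5 CPM and the treated ones 2152, 2559 and 2659.9. All treated libraries lay below all untreated ones, yet the log2 fold change of -0.26 ± 0.09 was not called (adjusted p = 0.0716). Within the first set, with its single treated library, it was -0.39 ± 0.08. Within the second, with its single untreated library, it was -0.30 ± 0.08. The libraries of the second set had the higher VIM in each group.

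The difference between the responses of VIM was -0.63 ± 0.13 (adjusted p = 0.0137), and it was -0.77 ± 0.10 against the first set and -0.68 ± 0.09 against the second. VIM was higher in MDA-MB-231 by 1.49 ± 0.09 untreated and by 0.86 ± 0.09 treated, 2.81-fold and 1.82-fold in mean CPM, so the gap between the lines was narrower with interferon-β. On the opposite strand, exons of VIM-AS1 and a neighbouring antisense gene cover 24.4% of the VIM exon bases. VIM-AS1 had 2.91 ± 0.572, 3.86 ± 0.0595, 5.26 ± 0.0966 and 6.95 ± 0.239 CPM in untreated and treated HCC38 and untreated and treated MDA-MB-231. These levels are small beside those of VIM, and because the strand setting of the counting is not given, VIM-AS1 itself is uncertain.

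**Figure D2:**
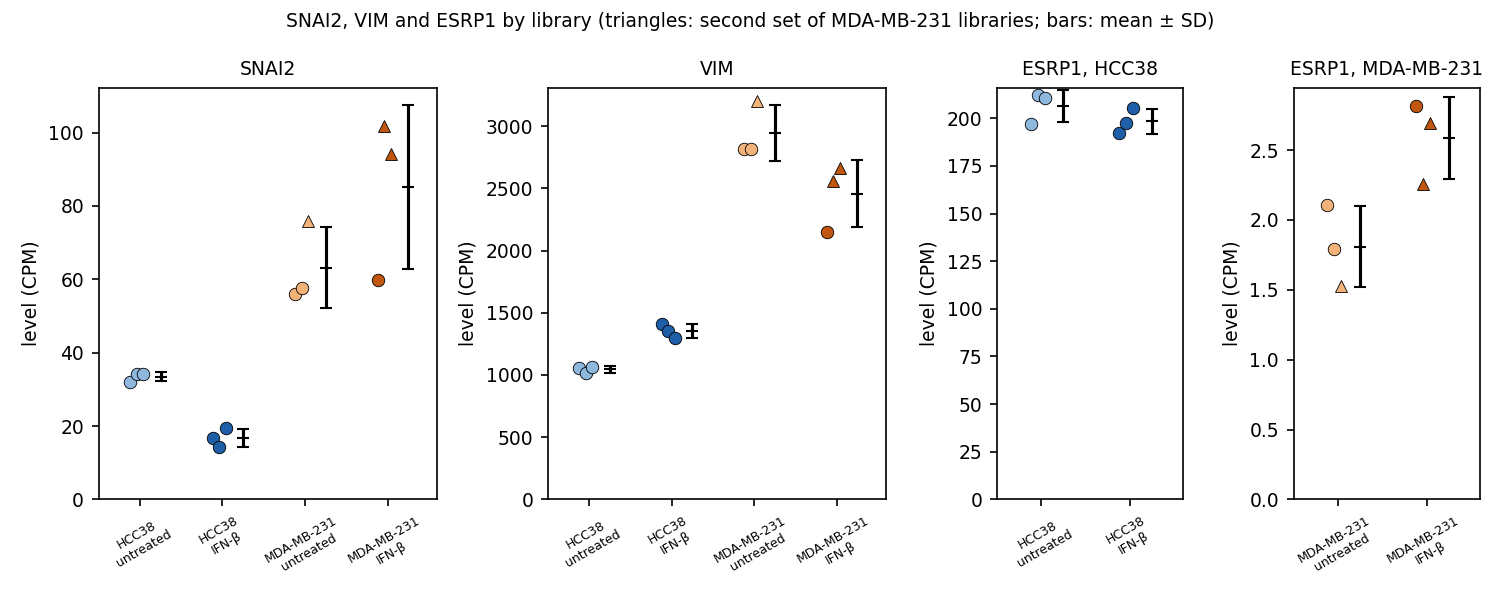
CPM of SNAI2, VIM and ESRP1, each point 1 library, triangles the second set of MDA-MB-231 libraries, bars mean ± SD of 3 libraries, with ESRP1 on separate axes for the lines. SNAI2 in HCC38 falls from 33.5 to 16.8 CPM on average while the treated MDA-MB-231 libraries spread from 59.7 to 102 CPM.

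Of the epithelial members, 2 were detected in HCC38 alone. GRHL2, a grainyhead factor that sustains CDH1 and junction genes, had 64.5, 60.9 and 68.4 CPM in untreated HCC38 and 64.3, 64.4 and 66.3 CPM in treated HCC38, and 0 counts in all MDA-MB-231 libraries. Against the 3-count floor it was at least 719.4-fold lower in untreated MDA-MB-231. Its log2 fold change in HCC38 was 0.01 ± 0.09 (adjusted p = 0.984). The FPKM of GRHL2 were less steady than its counts, at 15.7, 78.1 and 18.0 in untreated HCC38, where the deposited interval of the high value ran from 0 to 253, so its place in the order of levels is uncertain. OVOL1, a zinc finger repressor of ZEB1 on chromosome 11 (65787022 to 65797219, plus strand), was the scarcest of the 10 in HCC38. It had 2.80, 2.83 and 2.85 CPM untreated and 3.52, 4.17 and 3.80 CPM treated, with 0 counts in MDA-MB-231, at least 31.48-fold lower. The treated HCC38 libraries all lay above the untreated ones, and the log2 fold change of 0.44 ± 0.21 was not called (adjusted p = 0.345), although the change of 0.24 on the log2(FPKM + 1) scale was called by limma (adjusted p = 0.0317). Antisense exons cover 27.1% of the OVOL1 exon bases, so its low counts are uncertain. GRHL2, ESRP1 and SNAI2 lie on chromosome 8.

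ESRP1, the RNA-binding protein that sets epithelial splice forms of FGFR2, CD44 and other genes, was the one epithelial member detected in both lines. Untreated HCC38 had 197, 212 and 210.4 CPM and untreated MDA-MB-231 2.11, 1.79 and 1.53 CPM, from 59 to 63 counts per library. It was lower in MDA-MB-231 by a log2 fold change of -6.85 ± 0.12 (adjusted p = 3.57e-15), 114-fold in mean CPM. With interferon-β HCC38 had 192, 198 and 205 CPM, overlapping the untreated group (log2 fold change -0.06 ± 0.08, adjusted p = 0.798). MDA-MB-231 had 2.81, 2.26 and 2.69 CPM, all above the untreated libraries, and ESRP1 rose by 0.54 ± 0.13 (adjusted p = 0.0137), 1.43-fold. The change was 0.53 ± 0.19 within the first set (adjusted p = 0.115) and 0.70 ± 0.19 within the second (adjusted p = 0.0150). ESRP1 was no longer called without untreated replicate 3 (0.42, adjusted p = 0.0607) and without interferon-β replicate 3 (0.51, adjusted p = 0.0617). The treated level in MDA-MB-231 remained 76.7-fold below that of treated HCC38. The response differed between the lines by 0.60 ± 0.15 (adjusted p = 0.0466), a call lost when any 1 of 10 of the 12 libraries was left out (adjusted p up to 0.140). It was 0.59 ± 0.20 against the first set alone, not called (adjusted p = 0.111), and 0.75 ± 0.20 against the second, called (adjusted p = 0.0191).

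**Figure D3:**
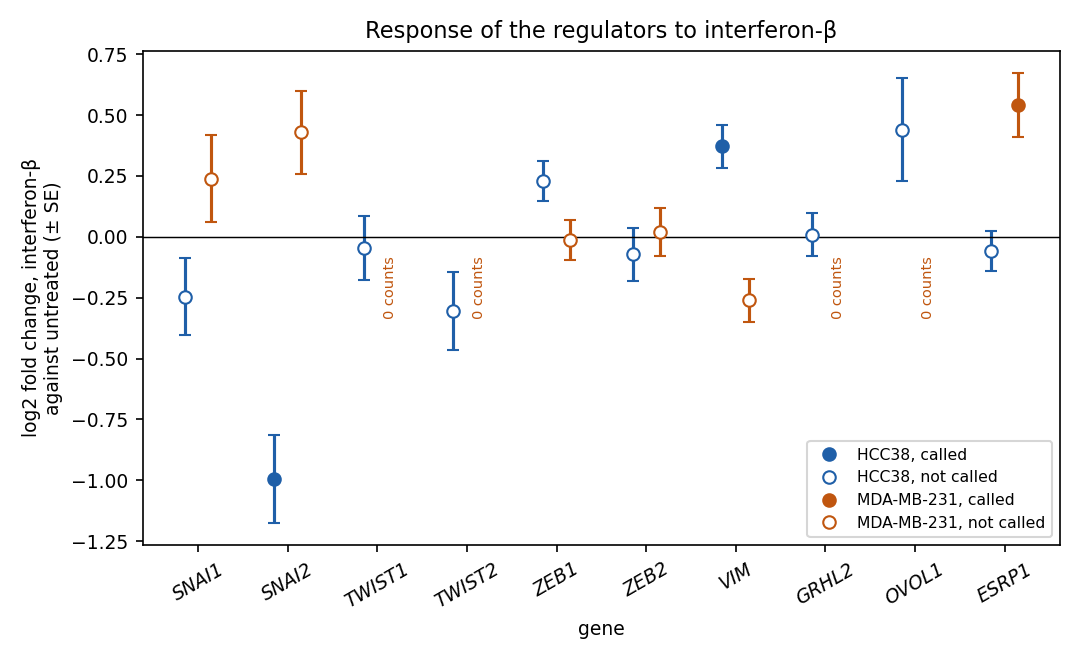
Log2 fold change of each gene with interferon-β, with its SE, in HCC38 (blue) and MDA-MB-231 (orange), filled where called. The estimates for SNAI2 and VIM lie on opposite sides of 0 in the lines, with SNAI2 at -0.99 and 0.43 and VIM at 0.37 and -0.26, and 4 genes have 0 counts in MDA-MB-231.

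The response differed between the lines for 3 of the 6 genes with counts in both, SNAI2, VIM and ESRP1, where 3.52% of all genes were called. For SNAI1 the difference of 0.49 ± 0.24 was not called (adjusted p = 0.293), though it was called against the first set alone, at 0.79 ± 0.22 (adjusted p = 0.0442), and not against the second (0.33 ± 0.24, adjusted p = 0.438).

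The relatives of the members and the genes they act on were read from lists chosen with earlier results of these data known, and their counts are descriptions. Each list count between the untreated lines stands beside a share of 75.5% of all genes tested that were called there. Listed genes at 0 counts throughout a line passed the filter on low counts only through the other line. Their calls between the lines were fixed by passing it. Of 18 epithelial regulators tested, 15 were lower and 2 higher in untreated MDA-MB-231, with a median log2 fold change of -3.48, or -2.97 with genes at 0 in a line set to their bound, beside -0.04 over all genes. OVOL2, the paralogue of OVOL1, had 5.26 ± 0.347 CPM in HCC38 and at most 2 counts in a MDA-MB-231 library. GRHL1 was lower by a log2 fold change of -1.85 ± 0.19 and the ESRP1 paralogue ESRP2 by -4.19 ± 0.23. GRHL3 had 1.53 ± 0.131 CPM in HCC38 and 0 to 2 counts per library in MDA-MB-231. The lines differed in the same direction for the 3 GRHL, 2 OVOL and 2 ESRP genes that passed the filter on low counts, which OVOL3 did not. For GRHL2, GRHL3, OVOL1 and OVOL2, at 0 to 2 counts per untreated MDA-MB-231 library, that direction was fixed by passing the filter through HCC38. GRHL1 was the nearest between the lines, at 8.80 ± 0.489 CPM in HCC38 and 2.44 ± 0.649 CPM in MDA-MB-231. ELF5, a luminal progenitor factor, was also lower. FOXA2, an endodermal factor, went the other way, at 15.6 CPM on average in MDA-MB-231 and 0 counts in untreated HCC38, and KLF4 was higher by 1.11 ± 0.12.

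Epithelial junction and surface genes followed the same line difference: 27 of 31 were lower and 2 higher in untreated MDA-MB-231, with a median of -3.58. CDH1 had 140 ± 2.86 CPM in untreated HCC38 and 0 to 3 counts per library in untreated MDA-MB-231 (adjusted p = 8.14e-15). PRSS8, a membrane protease, and MARVELD3, a tight junction protein, had 0 counts in untreated MDA-MB-231 and were at least 304.9-fold and 142.9-fold lower. The calls of PRSS8 and MARVELD3 were fixed by passing the filter through HCC38. EPCAM, the epithelial adhesion molecule, had 213 ± 9.42 and 2.58 ± 0.481 CPM. The tight junction gene OCLN was higher in MDA-MB-231, by 0.57 ± 0.12.

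The mesenchymal lists did not follow VIM and the ZEB genes. Of 30 mesenchymal structural genes, 18 were lower and 7 higher in untreated MDA-MB-231, with a median of -1.89, or -1.81 with bounds. N-cadherin, CDH2, had 251 ± 7.32 CPM in HCC38 and 0.249 ± 0.129 CPM in MDA-MB-231, and fibronectin, FN1, 3787 ± 188 against 418 ± 105 CPM. The collagen gene COL1A2, the gelatinase gene MMP2 and the matrix gene POSTN had 269.7, 131 and 171 CPM on average in HCC38 and at most 1 count in any untreated MDA-MB-231 library, whereas NT5E, which encodes CD73, and the collagen crosslinker LOXL2 were higher, by 7.04 ± 0.14 and 2.80 ± 0.13. Of 21 mesenchymal transcription factors 9 were higher and 10 lower, with a median of -0.11. FOXQ1, FOSL1 and HMGA2 were higher, by 4.42 ± 0.21, 4.36 ± 0.09 and 2.39 ± 0.14. TCF4, an E-box factor, had 125 ± 3.37 CPM in HCC38 and 0.103 ± 0.0774 CPM in MDA-MB-231, and PRRX1 and PRRX2 had 0 counts in MDA-MB-231, at least 64.58-fold and 29.91-fold lower. HCC38 libraries thus held both CDH1 and CDH2, and both GRHL2 and TWIST1. Markers of fibroblasts and endothelium were read beside this: the summed CPM of 12 such genes was 2470 to 2987 in untreated HCC38 and 16.6 to 28.0 in untreated MDA-MB-231, mostly COL1A1 at 2626 ± 289 CPM in HCC38, with KDR and TEK at 0 counts. The summed CPM of 10 leukocyte markers was 5.50 to 6.31 and 0.315 to 1.55. Their part in the line differences was not tested.

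**Figure D4:**
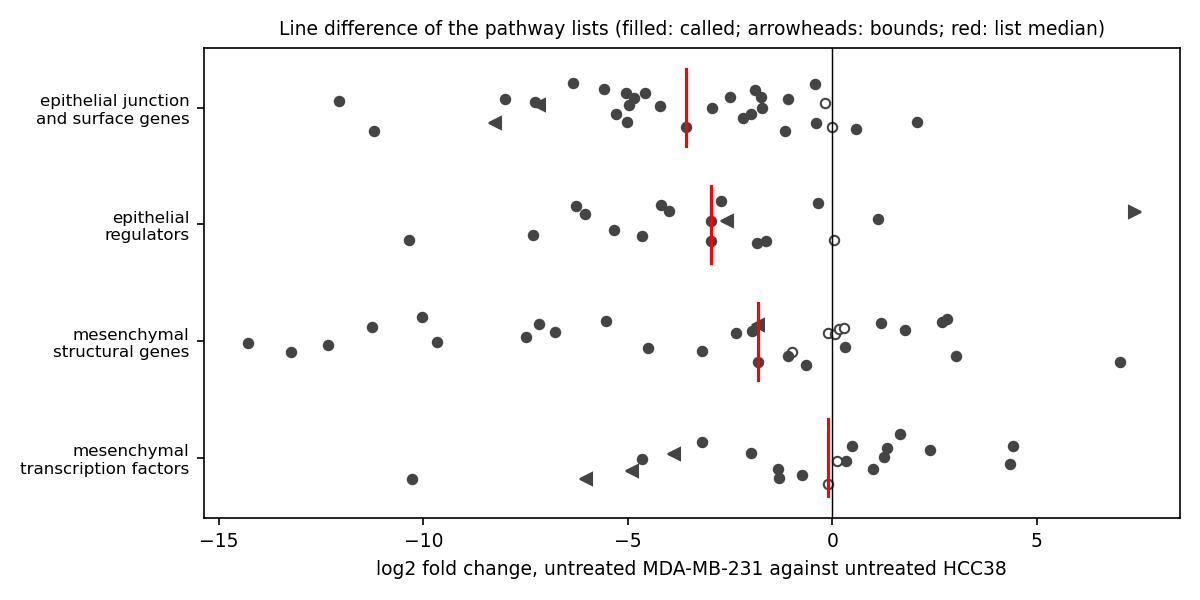
Log2 fold change between untreated lines for genes of 4 lists, each point 1 gene, filled where called, arrowheads the bounds of genes at 0 counts in a line and red bars the list medians with bounds (points of genes with a few counts in a line are fitted values that depend on the prior count). The epithelial lists lie mostly below 0, with medians of -2.97 and -3.58, and the mesenchymal lists spread to both sides.

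Other partners of the members were compared between the untreated lines as well, where 75.5% of all genes tested were called. Of 27 corepressors and partners 18 were lower and 4 higher in MDA-MB-231, led by the inhibitors ID1, ID3 and ID2 of helix-loop-helix factors such as TWIST, lower by log2 fold changes of -2.30 ± 0.14, -1.84 ± 0.17 and -1.66 ± 0.19, while AJUBA, a SNAI corepressor, was higher by 2.02 ± 0.07. Of 23 genes for the turnover of SNAI1, SNAI2 and ZEB1 proteins 9 were lower and 5 higher. BTRC, a ubiquitin ligase subunit that marks SNAI1 for decay, was higher by 1.55 ± 0.10, and GSK3B, the kinase that primes it, was lower by a log2 fold change of -1.16 ± 0.11. Of 19 other splicing regulators 9 were higher and 5 lower, with CELF2 and KHDRBS3 higher by 4.98 ± 0.29 and 4.16 ± 0.20. Of 22 intermediate filament genes and VIM partners 13 were lower and 6 higher, with the epithelial keratin gene KRT19 lower by a log2 fold change of -9.48 ± 0.18 and PLEC, which ties vimentin to other filaments, higher by 1.70 ± 0.10. KRT5, a basal keratin gene, had 22.7 ± 2.05 CPM in HCC38 and 0 or 1 count per library in MDA-MB-231.

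With interferon-β, genes of the mesenchymal and filament lists were among those called in HCC38, where 3.64% of all genes were called. Of 21 mesenchymal transcription factors 3 rose and none fell, FOXQ1 by 1.71 ± 0.24, FOSL1 by 1.42 ± 0.08 and HMGA2 by 1.35 ± 0.14, all of them genes that were higher in MDA-MB-231. Of 30 mesenchymal structural genes 5 rose, among them NT5E by 2.92 ± 0.12 and the receptor kinase AXL by 0.82 ± 0.08, and 3 fell, ACTA2 with a log2 fold change of -1.16 ± 0.21, COL3A1 of -0.77 ± 0.14 and POSTN of -0.55 ± 0.10. Of 17 epithelial regulators KLF4 alone was called, higher by 1.00 ± 0.12, and of 31 junction genes CLDN1 alone, higher by 0.65 ± 0.11. CDH1 had 162 ± 9.21 CPM treated and was not called (0.21 ± 0.10, adjusted p = 0.341), nor was CDH2 (0.19 ± 0.12, adjusted p = 0.496). Among the filament genes, 3 of 22 rose, KRT17 by 1.53 ± 0.34, KRT80 by 0.52 ± 0.08 and KRT7 by 0.38 ± 0.09, and among 27 corepressors ID1 fell, with a log2 fold change of -0.59 ± 0.14. None of 23 turnover genes and none of 19 splicing regulators was called. Summed leukocyte markers ran from 5.50 to 6.31 CPM untreated and 4.93 to 5.88 CPM treated, with the leukocyte gene PTPRC higher, from 3 to 7 counts per library to 14 to 20 (adjusted p = 0.0376). Summed fibroblast and endothelial markers ran from 2470 to 2987 CPM untreated and 2167 to 2683 CPM treated, and none of 9 tested was called. Their part in these changes was not tested. The list medians were 0.08 for mesenchymal transcription factors, -0.06 for mesenchymal structural genes, 0.09 for epithelial regulators and 0.10 for junction genes, beside -0.0041 over all genes tested.

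In MDA-MB-231, where 12.5% of all genes were called, 11 of 29 junction and surface genes rose and none fell, with a median of 0.51 beside 0.0034 over all genes. All 11 had estimates above 0 within each set, and 8 were called within the first set and 11 within the second. CDH1 rose from 0.0242 ± 0.0420 to 0.527 ± 0.128 CPM, that is from 0 to 3 counts per library to 15 to 20 (adjusted p = 0.000126), and was called within each set. CLDN1 rose by 1.34 ± 0.16, the membrane protease gene ST14 by 1.27 ± 0.23 and EPCAM by 0.81 ± 0.12, from 2.58 to 4.57 CPM. Of 17 epithelial regulators EHF, PRDM1 and GATA3 rose, by 2.01 ± 0.58, 1.72 ± 0.19 and 0.48 ± 0.11, and FOXA1 fell, with a log2 fold change of -0.80 ± 0.23. EHF rose from 2 to 9 counts per library to 7 to 39, by 3.27 ± 0.53 within the first set (adjusted p = 0.000293) and 0.78 ± 0.68 within the second (adjusted p = 0.495). Of these 4, PRDM1 was called within both sets, EHF and GATA3 within the first and FOXA1 within the second. ESRP2, at 1.05 ± 0.414 CPM untreated and 1.53 ± 0.410 treated, was not called (adjusted p = 0.255). Mesenchymal structural genes moved both ways, 7 of 30 higher and 3 lower. COL1A2, COL3A1 and ACTA2 rose from 0.00994, 0.0584 and 0.402 CPM to 0.118, 0.287 and 1.67 CPM, and MSN, TNC and AXL fell, with log2 fold changes of -0.45 ± 0.07, -0.43 ± 0.08 and -0.40 ± 0.07. The untreated means of COL1A2 and COL3A1 lay below the 3-count floor of 0.0898 CPM. The treated mean of COL1A2 lay near its floor of 0.0876 CPM, and the groups of COL3A1 overlapped. Of these 10 genes 5 were called within the first set, MSN, TNC and AXL among them, and 9 within the second, and COL3A1 in neither (adjusted p = 0.295 and 0.118). Of 18 mesenchymal transcription factors KLF8 and RUNX2 rose, by 0.57 ± 0.16 and 0.35 ± 0.10, and WWTR1 and SOX9 fell, with log2 fold changes of -0.35 ± 0.10 and -0.25 ± 0.07. None of the 4 was called within the first set and WWTR1 and SOX9 were within the second, with estimates of the same sign in both. The medians of these lists were 0.31 for epithelial regulators, 0.30 for mesenchymal structural genes and 0.07 for mesenchymal transcription factors. The splicing factors MBNL3 and MBNL1 fell, with log2 fold changes of -0.86 ± 0.12 and -0.31 ± 0.08, both called within the second set and MBNL3 within the first. Summed leukocyte markers ran from 0.315 to 1.55 CPM untreated and 0.842 to 1.84 CPM treated, and summed fibroblast and endothelial markers from 16.6 to 28.0 and 29.5 to 38.1 CPM. Their part in these changes was not tested.

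The responses of several of these genes differed between the lines by the test of the difference itself. CDH1, the desmosomal gene DSP and CLDN7 had the higher response in MDA-MB-231 (adjusted p = 0.00107 for CDH1), DSP by 0.86 ± 0.11 and CLDN7 by 0.89 ± 0.22. HMGA2, FOSL1 and FOXQ1 rose in HCC38 and differed by -1.64 ± 0.19, -1.59 ± 0.11 and -1.31 ± 0.29. NT5E and AXL differed by -3.06 ± 0.16 and -1.22 ± 0.11, as VIM did with -0.63. ACTA2 differed by 3.14 ± 0.45, in the direction of SNAI2, as did COL3A1 and COL1A2, which had 0 to 6 and 0 to 1 counts per untreated MDA-MB-231 library (adjusted p = 0.0265 and 0.0299). Against the first set alone CLDN7, COL3A1 and COL1A2 were not called, and against the second alone these 3 were. For EPCAM the difference was not called (0.49 ± 0.15, adjusted p = 0.0991).

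Likeness to each member was measured as Pearson's r of log2 CPM over the 12 libraries after subtracting the mean of the own line, among 211 genes of the lists, and is given without a test because libraries share line, treatment and set. VIM was most like AXL (r = 0.915) and the Hippo pathway factor TEAD4 (0.892). SNAI2 was most like POSTN (0.833) and ACTA2 (0.797), while ESRP1 had r = 0.905 with ID2 and OVOL1 0.928 with KLF4, in each case the second highest value. SNAI1 was most like S100A4 (0.905) and ZEB1 like USP37 (0.857), while the highest values for ZEB2, TWIST1 and GRHL2 were 0.618, 0.666 and 0.683. Members at 0 in MDA-MB-231 do not vary there, so any likeness of theirs comes from the 6 HCC38 libraries. The spread of the other gene in MDA-MB-231 still enters r and lowers it.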

How the data were processed

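RNA-seq was measured in 12 libraries, 3 for each of 2 lines with and without interferon-β. Per the submitters' processing notes, fastp 0.23.2, HTSeq 2.0.2 and Cufflinks 2.2.1 were used with build GRCh38.p13. Which aligner and strand setting were used is not given in the sources used here, nor is the annotation release. The deposited counts are whole reads per gene, not normalized. The deposited FPKM are Cufflinks estimates, normalized for length and depth by the authors. Rows with no symbol held 0.280% to 0.342% of the counts and stayed in the tests under their gene identifiers.

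Counts were tested with edgeR 4.0.16 (limma 3.58.1, R 4.3.3): filterByExpr with a minimum count of 10 and total of 15, TMM factors from 0.947 to 1.03, one coefficient per group over 4 groups, the quasi-likelihood test and Benjamini-Hochberg adjustment. DESeq2 1.42.0, limma-voom, limma on log2(FPKM + 1) and on log2(FPKM + 0.1), other scalings, no filter, single libraries left out, and a replicate block were alternatives, and fits with 1 set of MDA-MB-231 libraries were added after seeing the data. The smallest chi-square per degree of freedom between replicates was 4.31, so no library was counted as a duplicate. The script was tested on simulated data. Annotation came from GENCODE release 29 (GRCh38), and sequences from RefSeq and the genome.

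The members and lists were chosen with earlier results of these data known. The text names all 10 members, set key genes, and up to 3 called genes per list and direction with the largest fold change; CLDN7, DSP and a few list genes appear by that rule in the test of the difference. A few genes that this rule would name are not reported here.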

Additional observations from a re-analysis of the deposited data

Results flagged for a closer look

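The responses of 3 of the 6 genes with counts in both lines to interferon-β differed between the lines by the test of the difference, MDA-MB-231 minus HCC38, in edgeR's quasi-likelihood test. For SNAI2 the difference was 1.42 on the log2 scale (adjusted p = 0.00584), with all 3 treated HCC38 libraries below all untreated ones and overlapping groups in MDA-MB-231. For VIM it was -0.63 (adjusted p = 0.0137), with all 3 treated libraries above the untreated ones in HCC38 and all 3 below them in MDA-MB-231. For ESRP1 it was 0.60 (adjusted p = 0.0466), with all 3 treated libraries above the untreated ones in MDA-MB-231 and overlapping groups in HCC38. The ESRP1 call was lost when any 1 of 10 of the 12 libraries was left out (adjusted p up to 0.140). Of all genes tested 3.52% were called in this comparison.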

How the results depend on the processing

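All 10 members were called between the lines under every alternative run, in each treatment state, where 45.2% to 79.2% of all genes tested were called. The calls of the 4 genes at 0 counts in MDA-MB-231 were already fixed by their counts in HCC38. In HCC38 the count of members called, 2 (beside 3.64% of all genes tested), was 3 with log2(FPKM + 1) (2.94%), with OVOL1 added. It was 1 with log2(FPKM + 0.1) (1.99%) and 1 to 2 when 1 library was left out (1.83% to 5.6%). In MDA-MB-231 the count of 1 (12.5%) became 2 with DESeq2 (16%), 3 with no filter (8.37%) and 2 with a term for the sets (22.6%). It became 0 with log2(FPKM + 1) (7.15%), 0 with its 6 libraries alone (6.57%), and 0 to 2 when 1 library was left out (6.29% to 17.5%). For the difference of the responses the count of 3 (3.52%) became 1 with log2(FPKM + 0.1) (1.31%). It became 2 with RLE factors (3.65%), limma-voom (2.99%) and log2(FPKM + 1) (1.86%), ESRP1 being the one lost in those 3 fits (adjusted p = 0.175 with log2(FPKM + 1)). VIM in MDA-MB-231 was called with DESeq2 (-0.27, adjusted p = 0.0218), limma-voom (-0.26, adjusted p = 0.0446), no filter (-0.27, adjusted p = 0.0209) and a term for the sets (-0.34, adjusted p = 0.000325). ESRP1 in MDA-MB-231 was not called with limma-voom (adjusted p = 0.0875), and its difference was not called with limma-voom (adjusted p = 0.140) or RLE scaling (adjusted p = 0.0573). VIM lost its HCC38 call (adjusted p = 0.0561) and its difference (adjusted p = 0.0545) with log2(FPKM + 0.1). The cause of these changes was not tested.

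Deviations of same-numbered libraries correlated at -0.26 to 0.27, and those of differently numbered ones at -0.47 to 0.38. In HCC38, which has no such sets, same-numbered libraries correlated at 0.0364, -0.1195 and 0.0237. These values lay within the range of differently numbered HCC38 libraries, -0.1492 to 0.1354. In MDA-MB-231 the sets enter the values, so there they cannot decide whether the replicate numbers pair the samples. With a replicate block 2, 1, 2, 10 and 10 members were called in the 5 comparisons, beside 3.49%, 11.9%, 2.94%, 75.3% and 74.8% of all genes. The difference of ESRP1 (0.59, adjusted p = 0.0679) was the one call lost.

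Estimates near 0 that were not called changed sign. TWIST1 in HCC38 became 0.0832 and 0.0892 with log2(FPKM + 1) and log2(FPKM + 0.1), and ran from -0.0924 to 0.0293 over libraries left out. GRHL2 there became -0.55 and -0.57, and ran from -0.0310 to 0.0530. ZEB1 in MDA-MB-231 became 0.07 with library totals, 0.0627 and 0.0642 with the FPKM fits, 0.0136 with a term for the sets and 0.0507 with the first set alone, and ran from -0.0569 to 0.0347. ZEB2 there became -0.17 with the second set alone and ran from -0.0527 to 0.0855, and its difference became -0.10 with that set.

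Over all genes, the 659 calls in HCC38 were 361 with log2(FPKM + 0.1), 1170 with DESeq2 and 1959 with its 6 libraries alone. The 2272 calls in MDA-MB-231 were 1035 with its 6 libraries alone and 4095 with a term for the sets. The 637 calls of the difference were 237 with log2(FPKM + 0.1) and 2218 with that term. With library totals in place of TMM the share of MDA-MB-231 calls that were higher was 71.3%, not 51.5%, with the median of all genes at 0.09. ESRP1 in MDA-MB-231 had 59 to 108 counts per library, and whether depth limits its calls was not tested.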
